A study of Mus musculus with 2 samples.

Results

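RNA of 10 genes that mark or drive the mesenchymal cell state was compared between tooth and skin of wild-type mice. These genes were the transcription factors Snai1, Snai2, Twist1, Twist2, Zeb1, Zeb2, Prrx1 and Prrx2, together with Vim (vimentin) and Fn1 (fibronectin). They were chosen by name, and every non-control probe that carried such a name on both arrays was taken. This gave 10 of 24323 named genes and 13 of 55675 probes. The labels give 1 array for each tissue, P0 tooth and P0 skin, and P0 is read here as postnatal day 0. The wild-type genotype is stated in the study's text on this comparison. The study's own text describes tooth germ with its epithelium and mesenchyme, and skin with its hair follicles, at a stage 1 day later. Wild-type mice of the study were C57BL/6J. Sex and the number of animals behind each array were not given in the sources used here. Total RNA was hybridised to Agilent mouse arrays with a single dye, and both arrays were on the same slide.

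During epithelial-to-mesenchymal transition (EMT), epithelial cells lose their junctions and take on the shape and motility of mesenchymal cells. The zinc finger proteins of the Snai and Zeb families and the basic helix-loop-helix proteins of the Twist family bind E-box sequences, and several of them repress the E-cadherin gene Cdh1. These factors are also expressed in ordinary mesenchyme during development. Prrx1 and Prrx2 are homeobox factors of limb, craniofacial and dermal mesenchyme. Vimentin is the main intermediate filament protein of mesenchymal cells, and fibronectin is an extracellular matrix glycoprotein that cells bind through integrins. Both tissues were whole and contained epithelium and mesenchyme. In such bulk RNA, fewer cells of a type and less RNA per cell cannot be told apart, and a transition within the epithelium has no separate readout.

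All 10 genes were well above background on both arrays. The level of a probe was its log2 processed signal minus the 75th percentile of its array, and each difference was taken as skin minus tooth. At least 2-fold higher levels in tooth were found for 3 of the 10 genes, Prrx2, Snai1 and Zeb1. The background is the 17409 genes that 1 or both arrays called well above background, and among them the share at least 2-fold higher in tooth was 15.5%. None of the 10 was at least 2-fold higher in skin, where the share over all genes was 14.2%. The other 7 genes lay within 2-fold. By any amount, 8 of the 10 were higher in tooth, compared with 52.4% of all genes, and Twist1 and Twist2 were higher in skin. The median difference over the 10 genes was -0.58, and over all genes it was -0.04, with quartiles of -0.58 and 0.47. With 1 array per tissue no difference was tested, and these counts have no replicate check.

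**Figure D1:**
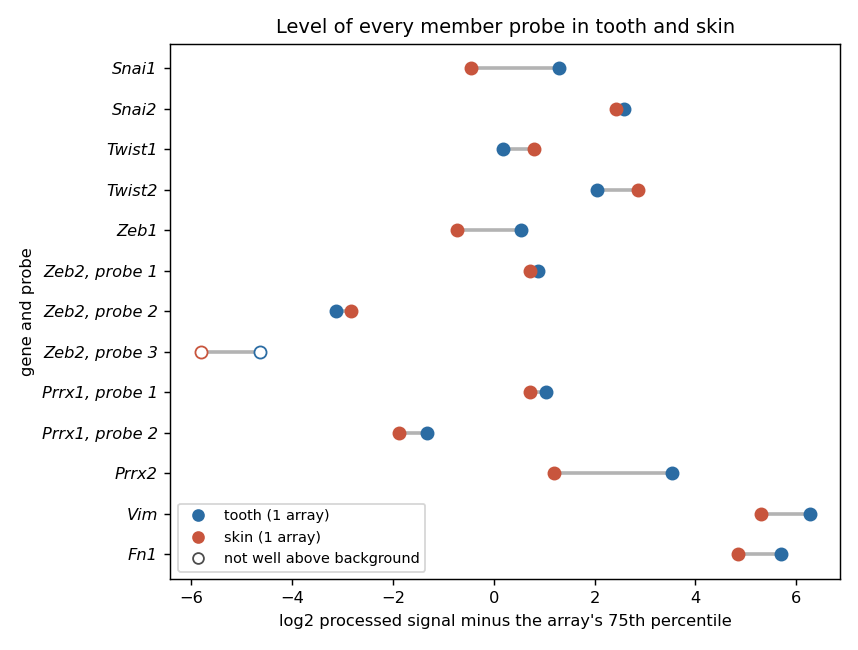
Level of each of the 13 probes of the 10 genes (log2 processed signal minus the 75th percentile of the array) in tooth (blue) and skin (red), 1 array each, 1 spot per point, with open circles for values not well above background. Wide gaps are seen for Prrx2, Snai1 and Zeb1, and the skin points of Twist1 and Twist2 lie to the right of their tooth points. Levels of different probes are not comparable with each other.

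The scale between the arrays affects every one of these differences. The 75th percentile signal was 428 for tooth and 276 for skin, whereas the median spike-in transcript (8 in all) differed by only -0.01 (log2) before scaling. Scaling by the spike-ins therefore lowered the median gene by 0.62 and each of the 10 genes by the same amount. The median of the 10 genes became -1.21, and 5 of them were at least 2-fold higher in tooth, with Vim and Fn1 added. The background share moved too, to 32.4%. Relative to the median gene, the median of the 10 genes was -0.54 under the 75th percentile, the median shift and the spike-in scaling. These scales differ only by a shift of a whole array, so this value could not differ between them. It was -0.52 under quantile normalization, -0.63 under normexp and -0.62 under the mean of a gene's probes. The split of 8 genes higher in tooth and 2 in skin was the same under 9 alternatives, of which 3 (the filters on dim probes and the bound) could not change any of the 10, and Twist1 had a difference of only 0.00 under spike-in scaling. With the mean of each gene's probes well above background on both arrays, added after seeing the data, the split was 7 and 3, as Zeb2 changed sign (0.08). Each gene had 1 spot per probe and array, so the error given with a signal or a difference is the error model of the extraction software. It leaves out variation between animals, dissections and labelling reactions.

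Zeb1 and Zeb2 encode large zinc finger and homeodomain repressors with a shared binding preference. The Zeb1 probe (NM_011546, mm9 chr18:5774613-5774672, plus strand) had a processed signal of 624 ± 62.5 in tooth and 168 ± 17.5 in skin. Its level was 0.54 in tooth and -0.72 in skin, which gave a difference of -1.26 ± 0.21, or 2.40-fold higher in tooth. Normexp background correction brought this closest to the 2-fold threshold (-1.05). The brightest Zeb2 probe (NM_015753, mm9 chr2:44842774-44842833, minus strand) had a signal of 789 ± 79.0 in tooth and 457 ± 46.0 in skin. After scaling, its level was 0.88 in tooth and 0.73 in skin. On this scale the Zeb2 difference of -0.16 ± 0.20 was smaller than its error, whereas that of Zeb1 was not. Under the median shift (-0.40) and spike-in scaling (-0.78) the Zeb2 difference was larger in size than this error. Only 12.1% of all genes had a lower difference than Zeb1, and 43.6% had a lower one than Zeb2.

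Snai1 and Snai2 (Snail and Slug) are zinc finger repressors known from gastrulation and neural crest, where Snai2 is also a standard crest marker. Snai1 (NM_011427, mm9 chr2:167368073-167368132, plus strand) had a signal of 1055 ± 106 in tooth and 202 ± 20.8 in skin. Its level was 1.30 in tooth and -0.45 in skin, which gave a difference of -1.75 ± 0.21, or 3.37-fold. This was the second lowest difference of the 10 genes, and it ranged from -2.38 to -1.53 over the alternatives. Snai2 (NM_011415, mm9 chr16:14709361-14709420, plus strand) had a signal of 2555 ± 256 in tooth and 1481 ± 148 in skin. Its level was 2.58 in tooth and 2.42 in skin, which gave a difference of -0.15 ± 0.20 that did not exceed its error. On this scale the Snai1 levels of the tissues were thus far apart and the Snai2 levels close together. The closeness of Snai2 rests on the scaling. Its difference was -0.40 under the median shift and -0.78 under spike-in scaling, both larger in size than the software error.

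The first 30 of the 60 bases of both Snai probes are given to show that the probes differ from each other in sequence. A probe that bound both transcripts would blur the contrast. No probe was compared with the transcript of its paralog, so this was not tested, here or for the other pairs.
Snai1 probe: gtttcacagcagtttaactgtctcagaagg
Snai2 probe: gtgaggtacggttaatagccacgcctatat
Over the whole probes, the longest run of bases shared by the pair was 6. No probe of another named gene shared a run of 20 bases with any probe of the 10 genes.

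Because Snail, Zeb and Twist proteins bind E-boxes, the promoter windows of the genes (RefSeq, GRCm38.p6, from 250 bases before to 50 bases after the start) were searched on both strands. The letters were CAGGTG, which reads CACCTG on the other strand, and the general E-box CANNTG, which contains it. Windows were matched for 7 of the 10 genes, with 4 starts for Zeb2 and 1 for each of the others, 10 windows in all. CAGGTG was present in 1 of these 10 and in 20.2% of all 32851 windows. CANNTG was present in the same 1 and in 72.3% of all windows. Some of the Zeb2 windows overlap, so the 10 windows are not 10 separate promoters. The window with a match was that of Snai1, at position -126 from the start. The 250 bases before this start (chr2:167537945-167538194, plus strand) are shown with the match in capitals.
Snai1 promoter: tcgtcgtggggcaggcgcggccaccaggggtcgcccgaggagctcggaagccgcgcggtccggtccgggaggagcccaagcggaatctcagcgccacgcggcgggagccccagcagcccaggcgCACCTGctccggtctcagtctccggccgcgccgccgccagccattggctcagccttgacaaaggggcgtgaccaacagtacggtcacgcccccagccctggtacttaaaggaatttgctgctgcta
This is a description of letters in a short window, and binding was not measured.

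Twist1 and Twist2 are basic helix-loop-helix factors of cranial and dermal mesenchyme, and Twist2 (Dermo1) is known from the developing dermis. They were the only genes of the 10 with a higher level in skin. Twist1 (NM_011658, mm9 chr12:34644411-34644470, plus strand) had nearly equal signals before scaling, 484 ± 48.6 in tooth and 482 ± 48.4 in skin. After scaling its level was 0.18 in tooth and 0.80 in skin, which gave a difference of 0.62 ± 0.20, or 1.54-fold higher in skin. Twist2 (NM_007855, mm9 chr1:93744519-93744577, plus strand) had a signal of 1776 ± 178 in tooth and 2006 ± 201 in skin. Its level was 2.05 in tooth and 2.86 in skin, which gave a difference of 0.81 ± 0.20, or 1.75-fold. The skin excess of both genes rests on the scaling. With spike-ins it was 0.00 for Twist1 and 0.18 for Twist2, both below the software error. The starts of the probes, shown for the same reason as those of the Snai pair, were as follows.
Twist1 probe: atggtaacaatcagaggaattttaacacct
Twist2 probe: ttattgagatattttaccagctaagtgact
The longest run shared by these probes was also 6 bases.

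Prrx2 had the widest gap of the 10 genes. Its probe (NM_009116, mm9 chr2:30736678-30736737, plus strand) gave a signal of 4934 ± 493 in tooth and 629 ± 63.2 in skin. The level was 3.53 in tooth and 1.19 in skin, which gave a difference of -2.34 ± 0.20, or 5.06-fold higher in tooth. Only 4.66% of all genes had a lower difference, and the value stayed between -2.96 and -2.29 over the alternatives. Its relative Prrx1 was measured by 2 probes. The brighter one (NM_175686 and NM_011127, mm9 chr1:165175375-165175434, minus strand) had a signal of 882 ± 88.2 in tooth and 455 ± 45.7 in skin, and levels of 1.04 and 0.72. Its difference was -0.32 ± 0.20. The dimmer one (NM_001025570, mm9 chr1:165185408-165185467, minus strand) had a signal of 172 ± 17.6 in tooth and 75.4 ± 8.67 in skin. Its levels were -1.32 and -1.87, and its difference was -0.55 ± 0.22. Both Prrx1 probes thus gave a higher level in tooth by less than 2-fold, although the array assigns them to different RefSeq transcripts. The beginnings of the 3 probes were as follows.
Prrx1 brighter probe: cacgtgggaggttaaattaaaccagaagta
Prrx1 dimmer probe: tcaagctagtacctcacatgagatattcat
Prrx2 probe: ggcggagctggagtccgccaaggaactcac
No run longer than 7 bases was shared between a Prrx1 probe and the Prrx2 probe.

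**Figure D2:**
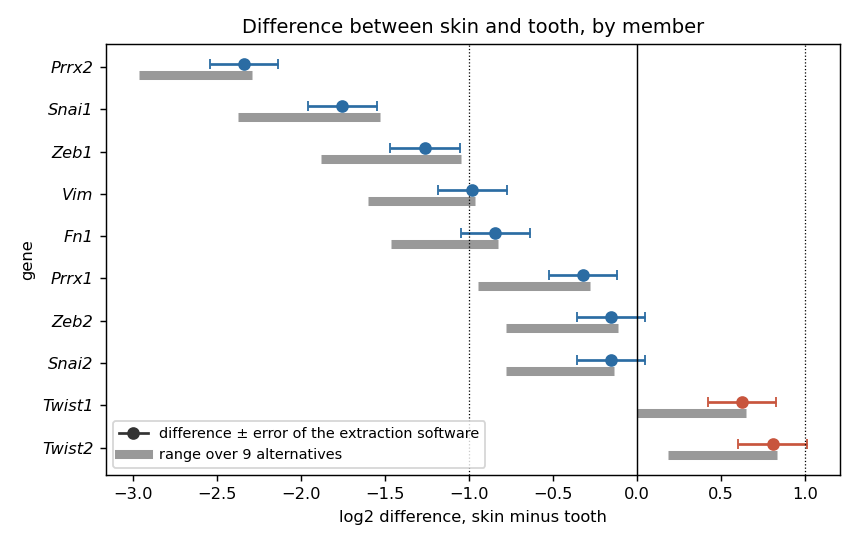
Difference of each of the 10 genes (log2, skin minus tooth), in order, with the error of the extraction software as whiskers and the range over 9 alternatives as grey bars; dotted lines mark 2-fold. Prrx2, Snai1 and Zeb1 lie beyond 2-fold in tooth, with whole ranges from -2.96 to -1.05, and the ranges of Twist1 and Twist2 start at 0.00 and 0.18.

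The other Zeb2 probes are described apart because the 3 probes of this gene did not give 1 answer. A dimmer probe of the same transcript (mm9 chr2:44840038-44840097, minus strand) had a signal of 48.8 ± 6.33 in tooth and 38.9 ± 5.91 in skin. Its levels of -3.13 and -2.83 gave a difference of 0.31 ± 0.29, with the sign opposite to that of the brightest probe. Its raw spot was 2.96 times its local background in tooth and 2.86 times in skin. The remaining probe (ENSMUST00000123037, mm9 chr2:44965914-44965973, minus strand) did not stand well above background in either tissue, with signals of 17.2 ± 4.84 and 4.94 ± 4.96, and no difference is given for it. Its whole sequence was found in a Zeb2 promoter window at positions -176 to -117, so it lies upstream of that RefSeq start, 1 of 4 for this gene. The mean of the pair that was well above background on both arrays was 0.08, against -0.16 for the brightest probe alone, so the direction of Zeb2 depends on the probe. The mean over all 3 probes (-0.34) includes the probe at background.
Zeb2 brightest probe: ctgtattttcgactgaaaattccactttct
Zeb2 dimmer probe: tacgtgggggaaaatatatgtgaaagcaat
Zeb2 probe at background: cttactgtaccgccgtgtgcattccctcat
The letters are the first 30 bases of each probe.

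Vim and Fn1, the structural markers, both had a higher level in tooth by slightly less than 2-fold. Vim (NM_011701, mm9 chr2:13504232-13504291, plus strand) had a signal of 33078 ± 3308 in tooth and 10813 ± 1081 in skin. Its level was 6.27 in tooth and 5.29 in skin, which gave a difference of -0.98 ± 0.20, or 1.97-fold higher in tooth. Fn1 (NM_010233, mm9 chr1:71632116-71632175, minus strand) had a signal of 22231 ± 2223 in tooth and 7990 ± 799 in skin. Its level was 5.70 in tooth and 4.85 in skin, which gave a difference of -0.84 ± 0.20, or 1.80-fold. Neither spot was saturated. Vim lay so close to the threshold that quantile normalization (-1.12) and normexp (-1.06) placed it beyond 2-fold, as did the median shift (-1.23) and the spike-ins (-1.60). Fn1 passed 2-fold under the median shift (-1.09) and the spike-ins (-1.47). Both markers were higher in tooth under every alternative that could change their values. The mean of a gene's probes was not among these, as it left both values as they were.
Vim probe: gcagtttttcaggagcgcaagatagatttg
Fn1 probe: ggtgattatttttataagcacatgccaacg
These are again the first 30 bases, and they identify what was measured for both markers.

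Within 3 of the 4 paralog pairs, 1 gene carried most of the difference between the tissues. A gap between paralogs is the difference of the first gene minus that of the second, and a shift of a whole array cancels from it. The gap was -1.60 ± 0.29 for Snai1 against Snai2, a 3.03-fold inequality. For Zeb1 against Zeb2 it was -1.11 ± 0.29, or 2.15-fold, and for Prrx1 against Prrx2 it was 2.02 ± 0.29, or 4.05-fold. Twist1 and Twist2 had similar differences, with a gap of -0.18 ± 0.29 that did not exceed its error. The median shift, spike-in scaling and the ratio table are such shifts, and the filters and the bound leave these genes as they are. These alternatives could not change any gap. Quantile normalization and normexp could change every gap, and the mean of a gene's probes only those of Zeb and Prrx. Over the alternatives, the Snai gap lay between -1.60 and -1.31 and the Zeb gap between -1.17 and -0.84. The Twist gap lay between -0.18 and -0.16 and the Prrx gap between 1.90 and 2.03. Hence the Zeb gap fell below 2-fold under normexp (-0.84) and under the mean of a gene's probes (-0.92). The latter includes the Zeb2 probe at background, and with only the probes well above background on both arrays, a setting chosen after seeing the data, the gap was -1.34. The other gaps stayed on their side of 2-fold under the alternatives that could change them.

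From the lowest to the highest difference the genes were ordered Prrx2, Snai1, Zeb1, Vim, Fn1, Prrx1, Zeb2, Snai2, Twist1 and Twist2. The steps from Prrx2 to Snai1 (0.59), Snai1 to Zeb1 (0.49), Fn1 to Prrx1 (0.52) and Snai2 to Twist1 (0.78) exceeded the software error of about 0.29 that a gap between 2 genes carries. The steps from Zeb1 to Vim (0.28), Vim to Fn1 (0.14), Prrx1 to Zeb2 (0.17) and Twist1 to Twist2 (0.18) did not, and Zeb2 and Snai2 lay only 0.0003 apart. Neighbouring genes joined by such a small step have no order. Genes that are not neighbours were not compared by these steps.

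**Figure D3:**
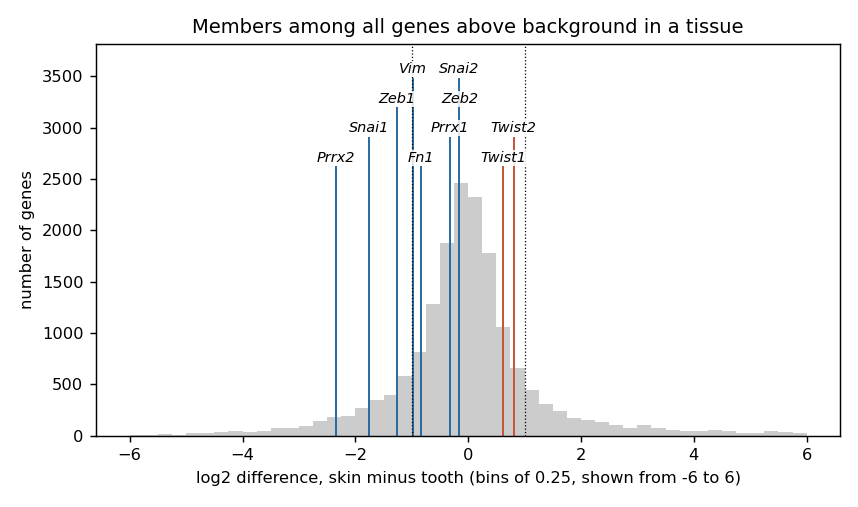
Histogram of the difference (log2, skin minus tooth) over the 17409 genes called above background on 1 or both arrays, in bins of 0.25, with a vertical line at each of the 10 genes (blue, higher in tooth; red, higher in skin) and dotted lines at 2-fold. Prrx2, Snai1, Zeb1, Vim and Fn1 lie below the lower quartile of the histogram (-0.58), Twist1 and Twist2 above the upper one (0.47), and Prrx1, Zeb2 and Snai2 between them.

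Partners and inhibitors of these factors were examined next. Twist proteins dimerise with the E proteins Tcf3, Tcf4 and Tcf12, Id proteins sequester E proteins, and Snai and Zeb proteins recruit Ctbp, Hdac and Kdm1a corepressors. All 12 genes of this list were well above background, with a median of -0.27. At least 2-fold higher in tooth were 3 of the 12, against 15.5% of all genes, and all 3 were Id genes. Id3 had a level of 4.89 in tooth and 2.44 in skin (-2.45), Id2 of 3.41 and 1.46 (-1.94), and Id1 of 4.23 and 3.18 (-1.05). The other 9 genes lay within 2-fold, and none was at least 2-fold higher in skin, against 14.2% of all genes.

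TGF-beta signalling is a main inducer of Snai and Zeb genes, and its list of ligands, receptors and Smads had a median of -1.28 over 8 genes. It held 4 genes at least 2-fold higher in tooth and none in skin, where the shares over all genes were 15.5% and 14.2%. Under spike-in scaling it held 7 in tooth, where the share over all genes was 32.4%. The ligand Tgfb1 had a level of 2.04 in tooth and -0.05 in skin (-2.09), and the ligand Tgfb2 of 4.26 and 2.32 (-1.94). The signal transducer Smad3 had 3.81 in tooth and 2.17 in skin (-1.64).

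A list of epithelial genes and of regulators that keep the epithelial state ran the other way. All 12 genes of this list were higher in skin, 8 of them at least 2-fold, and the median was 1.57. Of all genes, 52.4% were higher in tooth by any amount and 14.2% were at least 2-fold higher in skin. Under the median shift, normexp and the mean of a gene's probes, skin was higher for 11 of the 12. With spike-ins as the scale, skin was higher for 9 of the 12, and for 6 of them at least 2-fold. The share of all genes at least 2-fold higher in skin was then 9.04%. Ovol1, a zinc finger factor of epidermal differentiation, had a level of -3.09 in tooth and 2.30 in skin (5.39). The tight junction protein gene Cldn4 had -2.45 and 1.23 (3.69), and the splicing regulator Esrp2, which keeps epithelial isoforms, had -0.41 and 2.31 (2.71). Cdh1 itself was nearly level at 3.06 in tooth and 3.12 in skin. Its difference of 0.06 turned to -0.19 under the median shift, -0.56 under the spike-ins and -0.05 under normexp, so no direction is given for it.

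Other mesenchymal cell genes had a lower median than the 10 factors and markers. Of 16 genes, 10 were at least 2-fold higher in tooth and 1 in skin, with a median of -2.08. The shares over all genes were 15.5% and 14.2%. The N-cadherin gene Cdh2 had a level of 3.83 in tooth and -0.58 in skin (-4.41). Col1a1, a chain of type I collagen that bone and dentin contain in bulk, had 8.85 and 5.68 (-3.17), and the keratan sulphate proteoglycan gene Lum had 6.67 and 3.70 (-2.97). S100a4 was the gene at least 2-fold higher in skin (1.07), and 4 alternatives brought it under 2-fold. Whether the difference between this list and the 10 genes exceeds the variation between animals was not tested.

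Most binding partners of fibronectin were higher in tooth, and the relatives of vimentin were split. Among 6 fibronectin receptor genes, 3 were at least 2-fold higher in tooth and 1 in skin, with a median of -1.19. The shares over all genes were 15.5% and 14.2%. By any amount 5 of the 6 were higher in tooth, against 52.4% of all genes. The integrin genes Itga4 (2.62 in tooth, -1.26 in skin, difference -3.88) and Itgb3 (2.82, 0.31 and -2.50) were higher in tooth. The syndecan gene Sdc4 was higher in skin (2.56 in tooth, 4.0 in skin, difference 1.44), although spike-in scaling left it within 2-fold. Of 5 other intermediate filament genes 4 were well above background. Nes (nestin), known from progenitor cells and young odontoblasts, had 4.15 in tooth and 0.09 in skin (-4.06). Des (desmin), the muscle filament gene, had -3.61 in tooth and -0.72 in skin (2.89). The third by size was Gfap (0.56), whose sign turned under spike-in scaling. The median of this list was 0.15, and it was -0.10 under the median shift and -0.47 under the spike-ins.

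Close relatives of the factors were also read. Of 11 genes, 8 were called above background in 1 or both tissues, and Snai3, Scrt1 and Hand1 were in neither. The median over the 8 was -1.46 (-0.30 under normexp), with 4 genes at least 2-fold higher in tooth and 2 in skin. The shares over all genes were 15.5% and 14.2%. Hand2 and Tcf15 entered only through tooth. The 6 genes measured in both tissues had a median of -0.06, with 2 genes at least 2-fold higher in each tissue. Alx1, a homeobox gene of frontonasal mesenchyme, was higher in tooth (0.33 in tooth, -3.52 in skin, difference -3.86). The tendon factor gene Scx was higher in skin (-0.70 in tooth, 0.65 in skin, difference 1.35). Hand2 and Tcf15 were not well above background in skin. Their tooth levels of 1.07 and -2.71 were at least 27.9-fold and at least 2.03-fold higher, respectively, than the lowest signal that the skin array called well above background.

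**Figure D4:**
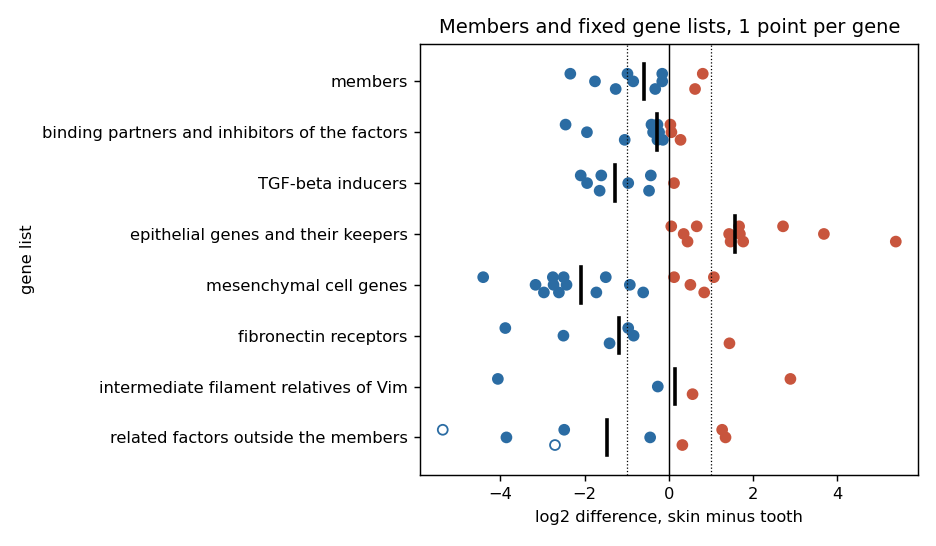
Difference (log2, skin minus tooth) of every gene in the 10 genes and in 7 related lists, 1 point per gene, blue for higher in tooth and red for higher in skin, open where a gene was not well above background on 1 array. Black bars mark the list medians, from -2.08 for mesenchymal cell genes to 1.57 for epithelial genes, and dotted lines mark 2-fold.

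Markers of the cell types that such dissections can hold also differed between the arrays. The defining genes of each labelled tissue were found on its own array. Enamel epithelium markers were well above background in 4 of 4 cases in tooth and 0 of 4 in skin, and Amelx (amelogenin) was at least 16383-fold and Ambn (ameloblastin) at least 9604-fold higher in tooth. Epidermis markers, led by Flg (12.89) and Krt1 (9.93), had a median of 9.11 and were detected in 5 of 5 cases in skin and 4 of 5 in tooth. A summed level is the sum over a list of the signals divided by the array's 75th percentile. Odontoblast and bone markers summed to 307 in tooth (4 of 4 detected) and 0.419 in skin (1 of 4). Dental mesenchyme markers had a median of -5.01, with 4 of 5 at least 2-fold higher in tooth, against 15.5% of all genes. These markers were detected in 5 of 5 cases in tooth and 2 of 5 in skin. Their sums of 23.1 and 14.1 rest largely on 1 probe of Lhx6 (3.56 in tooth, 3.65 in skin), a gene named after its values were seen. Another Lhx6 probe was detected in tooth only (-1.26). Dermal fibroblast markers summed to 4.49 in tooth (2 of 3) and 8.59 in skin (3 of 3), and Dpt was at least 18.7-fold higher in skin. Most of both sums came from 1 probe of Col14a1 (2.14 in tooth, 2.72 in skin), also named after its values were seen. Its difference of 0.58 became -0.05 when the spike-ins set the scale. The remaining Col14a1 probe, well above background in both tissues, had a difference of -0.76. No direction is therefore given for Col14a1.

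Markers of further cell types were also unequal. The median difference of their markers was -0.83 for endothelium, -1.0 for immune cells, -1.36 for cartilage and -0.24 for red cells. Under normexp these were -0.05, -0.58, -0.50 and -0.18. Restricted to genes that both arrays measured, the endothelium median was 0.43 (3 genes), the immune median -1.58 (3 genes) and the cartilage median -0.33 (2 genes), so no direction is given for endothelium. The median was 3.35 for muscle, 6.39 for melanocytes, 4.07 for fat and 1.07 for basal epithelium, and 0.31 for Schwann cells. Under spike-in scaling the basal epithelium median became 0.44 and the Schwann cell median -0.31. Muscle markers summed to 4.15 in tooth (4 of 5 detected) and 36.1 in skin (5 of 5), and endothelium markers to 30.6 (4 of 4) and 38.1 (3 of 4). The endothelium sums rest largely on 1 probe of Kdr (4.78 in tooth, 5.21 in skin), a gene named after its values were seen. Another Kdr probe, well above background on both arrays, had a difference of -2.19. Melanocyte markers summed to 2.12 in tooth (3 of 4) and 141 in skin (4 of 4). The part of the cell type makeup in the differences of the 10 genes was not tested, and with 1 array per tissue it cannot be told apart from the tissue.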

How the data were processed

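Total RNA of 1 tooth and 1 skin sample was measured on 2 arrays with 1 dye. Per the file headers, the deposited spot intensities came from Agilent Feature Extraction (10.7.3.1 per the submitters' processing notes), which had subtracted the background, detrended each array and put surrogates in place of very dim values (25.0% of spots in tooth and 27.7% in skin). The authors also deposited a table of ratios of this intensity to 1 factor per array, on a linear scale and not centred, which was used as an alternative. The study's methods named a percentile shift.

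Here, spots of a probe without an outlier flag were averaged on the log2 scale, and the 75th percentile over non-control probes was subtracted. A probe was well above background when the software called more than 50% of its spots so (56.7% of probes in tooth and 52.5% in skin). No spot was saturated. The probe with the highest mean stood for a gene. For a gene not well above background on 1 array, the bright level was set against the higher of the dim array's lowest such level (-4.52 in tooth, -3.73 in skin) and the dim value itself. Probes with at least 8 spots had a median SD of 0.08 in tooth and 0.09 in skin, which gives a difference an SD of 0.11. This covers spot scatter only, and the number of arrays limits the precision. Names came from the array's accessions through a RefSeq table (GRCm38.p6, 82.1% of 33184 named probes matched). Probe positions are mm9 per the file headers. The exon, intron or UTR under a probe was not analysed here. No column of another sample was used.

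The genes and lists were chosen with earlier results of these data known. Named are the 10 genes with every probe, Cdh1 and Cdh2, up to 3 genes per list with the largest difference measured on both arrays, up to 2 with the largest bound, and up to 2 per marker list. A gene that this rule names is not reported here. Genes of like pattern are not named, since 2 arrays give no measure of likeness. Besides these, Lhx6, Kdr and Col14a1 were named after their values were seen. The 9 alternatives were the median shift, spike-in scaling, quantile normalization, normexp (limma 3.58.1 in R 4.3.3, offset 50), the ratio table, the mean of a gene's probes, genes well above background on both arrays, no filter, and dim values at their bound. Paralog gaps and list values under these, the mean of a gene's probes well above background on both arrays and list medians over genes measured on both arrays were added after seeing the data. Scripts ran in Python 3.11.15 and were tested on simulated data.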

Additional observations from a re-analysis of the deposited data

How the results depend on the processing

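Of 90 values (10 genes under 9 alternatives), 38 could not change, as the filters and the bound leave all 10 genes as they are and 8 genes have 1 probe. Of the other 52, 26 moved by less than the spot scatter of 0.11, 26 moved by more and 0 changed sign. With the mean of a gene's probes well above background on both arrays, chosen after seeing the data, Zeb2 changed sign to 0.0752. The median of the 10 genes was -0.83 under the median shift and -1.21 under spike-in scaling, and the number at least 2-fold higher in tooth was 5 under both, with Vim and Fn1 added. It was 4 under quantile normalization and under normexp, with Vim added, and 3 under the other 5 alternatives, of which 3 could not change it. No alternative placed any of the 10 at least 2-fold higher in skin. The shares of all genes at least 2-fold higher in tooth and in skin were 20.1% and 11.6% under the median shift, 32.4% and 9.04% under spike-in scaling and 16.7% and 13.1% under quantile normalization, and 9.6% were higher in tooth under normexp. The median gene shifted by -0.25 under the median shift, by -0.62 under spike-in scaling and by 0.22 without a filter. No array could be left out, as each tissue had 1. No paired analysis was possible because no test was run. Dim probes limit both dimmer Zeb2 probes, and surrogate values have little order.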
